A study of Monodelphis domestica and Mus musculus with 2 samples.

Results

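Immediate early genes are switched on within minutes of strong synaptic input, from transcription factors that are already present in the nucleus, and their transcripts are short-lived. For that reason their RNA is widely used as a trace of recent activity in the visual cortex. The members described here are 10 genes chosen by symbol: the AP-1 subunits Fos, Fosb and Junb, the zinc-finger factors Egr1 and Egr3, the nuclear receptor Nr4a1, the neuronal factor Npas4, the synaptic protein Arc, the phosphatase Dusp1, which inactivates MAP kinases, and Ier2, a small nuclear protein. All 10 symbols stood in the mouse feature list, of 61317 features in all. The opossum list of 30613 features held 9 of the 10, with no feature named NR4A1.

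The data were 1 Stereo-seq sample per species of the primary visual cortex (V1), an assay that counts poly(A) RNA molecules as unique molecular identifiers (UMIs) at known positions. The gray short-tailed opossum (Monodelphis domestica) was a wild-type adult male of about 6 months, housed alone in a 12-hour light/dark cycle, and the C57BL/6J mouse was an adult male of about postnatal day 40, kept with cagemates in a reversed cycle. Neither animal received a stimulus that the sources used here describe, and the hour of collection and the light before it are not given in them. Both brains were removed after isoflurane and decapitation, with lower RNA integrity in the opossum block per the labels, which name slow removal of the brain. Species, age, housing, time of collection, RNA integrity and gene annotation therefore cannot be told apart in any difference between the sections. The V1 cells that passed the authors' filter numbered 4806 in 3 regions of the opossum section and 9127 in 4 regions of the mouse section, with 6933475 and 12522687 UMIs and medians of 1326 and 1305 UMIs per cell. The regions belong to the 1 sample of their species, the labels name no separate animals for them, and they are not treated as biological replicates, so no test between groups was made. Intervals are 95% and cover counting error only.

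Before the levels, the DNA in front of some members is shown, because the usual routes to these genes run through short promoter elements. The CREB protein, phosphorylated after calcium entry, binds the cAMP response element, whose full form is TGACGTCA and whose core site is CGTCA, which reads TGACG when taken from the other strand. In mouse (GRCm39, GENCODE vM39), a core site on either strand lay within the 300 bases before the start of the canonical transcript in 8 of 10 members, all but Arc and Npas4. The same holds for 19.9% of 21769 protein-coding promoters. The full element was in 2 members, Ier2 and Dusp1, and in 1.75% of all promoters. The Egr site GCGNGGGCG was in Fosb and Arc and in 4.71% of all. Searches covered both strands, and a full element also counts as a core site. A match is a string of letters, not evidence of binding. The 200 bases before the start follow for 3 members that differ in these sites, 5′ to 3′ on the strand of the gene and with core sites in capitals. They cover chr12:85520458-85520657 for Fos (plus strand), chr8:85389484-85389683 for Ier2 (minus) and chr15:74544420-74544619 for Arc (minus).
Fos: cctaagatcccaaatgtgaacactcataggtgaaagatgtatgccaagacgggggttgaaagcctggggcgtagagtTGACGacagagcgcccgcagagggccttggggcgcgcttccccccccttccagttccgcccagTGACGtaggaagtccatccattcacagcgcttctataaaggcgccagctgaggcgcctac
Ier2: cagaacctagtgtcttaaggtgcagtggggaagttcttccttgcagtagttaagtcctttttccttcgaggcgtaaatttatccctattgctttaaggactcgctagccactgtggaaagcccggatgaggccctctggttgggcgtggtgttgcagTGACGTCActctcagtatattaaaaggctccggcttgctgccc
Arc: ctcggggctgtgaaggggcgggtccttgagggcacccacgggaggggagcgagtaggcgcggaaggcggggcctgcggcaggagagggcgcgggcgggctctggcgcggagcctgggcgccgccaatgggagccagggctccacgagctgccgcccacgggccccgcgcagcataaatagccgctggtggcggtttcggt

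Fos carried core sites 123 to 119 and 60 to 56 bases before its start in the printed stretch, with one more 286 to 282 bases before it. The full element of Ier2, 43 to 36 bases before the start, is its own reverse complement and so holds a core site on each strand. The Arc stretch held no core site, and its Egr site lay 113 to 105 bases before the start. Opossum promoters were not analysed here.

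In V1 the 9 genes named in both species were present at very different levels, given here as UMIs per 10000 UMIs of the same cells. Their sum stood at 22.2 (21.8 to 22.5) in opossum V1 and at 34.4 (34.0 to 34.7) in the mouse, 1.55 times as high (1.52 to 1.58). By region the sum was 20.8, 21.8 and 25.7 in opossum V1 and 33.8, 34.5, 34.1 and 35.5 in the mouse. With Nr4a1, the mouse sum of all 10 genes was 42.0 (41.7 to 42.4). RNA was counted in UMIs at the 3′ end, which do not grow with transcript length, so levels of different genes are on 1 scale, apart from how well each 3′ end is annotated.

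Egr1, an activity-dependent factor that neurons also express at rest, made up most of the opossum signal. Its level was 17.2, 17.9 and 21.2 in the 3 opossum regions and 12.3, 13.4, 13.5 and 13.6 in the 4 mouse regions. The lowest opossum region thus lay above the highest mouse region, and Egr1 was the only one of the 9 genes with this order. Over all V1 cells it reached 18.3 (17.9 to 18.6) in the opossum, 1.40 times (1.37 to 1.43) the mouse level of 13.0. It held 82.4% of the members' UMIs in the opossum against 31.0% in the mouse. Without Egr1 the sum was 3.89 against 21.3, a ratio of mouse to opossum of 5.48. Egr3 and Ier2, with 2 and 4 UMIs in opossum V1, made up 2.41 and 0.997 of the mouse value.

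The AP-1 subunits were all higher in the mouse. Fos, the partner most used to mark active cells, was at 1.03, 1.03 and 1.08 in the opossum regions and at 3.90, 3.70, 3.12 and 3.44 in the mouse regions. The groups did not overlap, and the ratio of mouse to opossum was 3.46 (3.20 to 3.75). Junb, which dimerizes with Fos, was at 1.41, 1.503 and 1.89 in opossum V1 and at 5.29, 5.08, 4.77 and 5.40 in the mouse, a ratio of 3.35 (3.14 to 3.58). Fosb, whose splice form ΔFosB is known to build up with repeated stimulation, was at 0.363, 0.353 and 0.488 against 0.874, 0.685, 0.695 and 0.737, a ratio of 2.01 (1.76 to 2.32). Splice forms cannot be separated in these counts. In mouse (GRCm39) Fosb lies at chr7:19036621-19043976 on the minus strand, and Junb at chr8:85701113-85705359, minus strand, where it overlaps Prdx2 on the other strand.

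The remaining members spread widely. Npas4, which responds to calcium entry in neurons in particular, was at 0.396, 0.527 and 0.546 in the opossum regions and at 0.874, 0.944, 0.729 and 0.776 in the mouse regions, a ratio of 1.74 (1.54 to 1.98). It was the member with the smallest excess in the mouse. Dusp1 was at 0.236, 0.385 and 0.306 against 2.62, 2.55, 2.51 and 2.60, a ratio of 8.33 (7.25 to 9.60).

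Arc, whose RNA travels to active dendrites, was at 0.1199, 0.132 and 0.153 in opossum V1 and at 4.43, 4.96, 5.50 and 5.42 in the mouse. That is a ratio of 37.9 (30.8 to 47.1) and the widest gap among members with more than 4 opossum UMIs. Egr3 and Ier2 were close to absent from the opossum counts, with 2 and 4 UMIs in V1 against 3014 and 1249 in the mouse, ratios of 834 (231 to 6893) and 173 (67.4 to 636). The rest of the opossum section gave 37 and 47 UMIs of them in 75563 cells. Whether these features cover the 3′ ends of the opossum genes was not tested. Nr4a1, an orphan receptor induced with Fos, was at 7.19, 7.86, 7.95 and 8.10 in the 4 mouse regions, second only to Egr1 there. In GENCODE vM39 its gene model at chr15:101151980-101172681 (plus strand) and that of Dusp1 at chr17:26724564-26781102 (minus) overlap predicted genes on the same strand. Whether the annotation behind the counts holds the same models was not tested, so how reads were split there is uncertain.

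**Figure D1:**
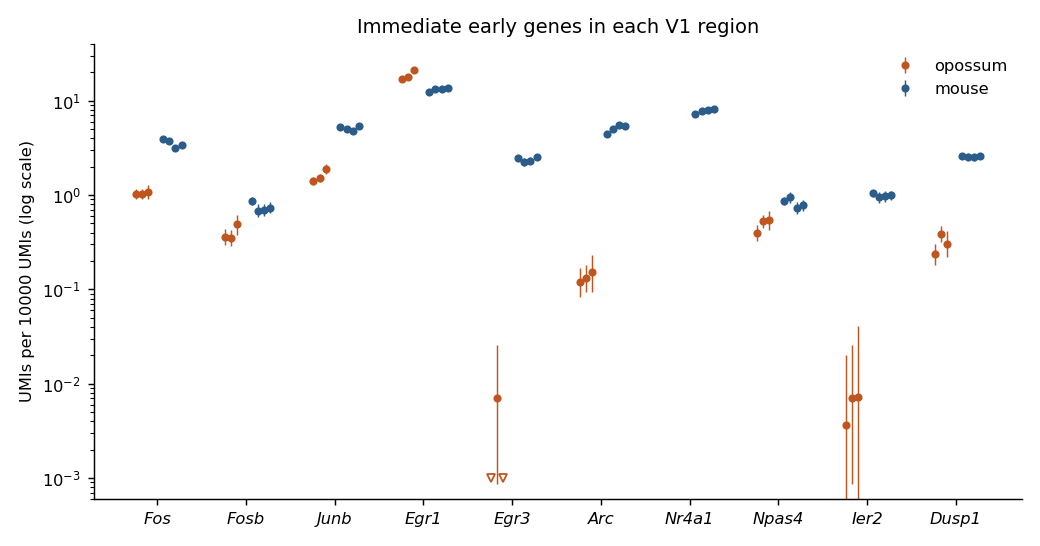
Level of each member in every V1 region (UMIs per 10000 UMIs, log axis; bars are 95% Poisson intervals; open triangles mark regions with no UMI and have no height of their own). Egr1 is the one gene whose opossum points lie above the mouse points, while Arc, Egr3, Ier2 and Dusp1 are separated most in the other direction; Nr4a1 has mouse points only.

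Of the 9 genes, 7 had at least 50 UMIs in each species, all but Egr3 and Ier2, which met a minimum on the summed UMIs of both species through the mouse counts alone. Among these 7, 6 were at least 1.5-fold higher in the mouse, beside 21.7% of the 6875 genes that met the same minimum, and 0 at least 1.5-fold higher in the opossum, beside 39.4%. The median ratio was 3.35 for these members and 0.811 for those genes. Every mouse region stood above every opossum region for 6 of the 7, beside 27.7%, and the reverse held for 1, Egr1, beside 46.9%. With the minimum set on both species together, which lets in Egr3 and Ier2, the counts were 8 and 0 of 9, beside 26.6% and 39.2% of 8521 genes, and 8 and 1 for the regions, beside 30.5% and 44.7%. The order of the members differed as well. In the opossum it ran Egr1, Junb, Fos, Npas4, Fosb, Dusp1, Arc, and the intervals of Npas4 and Fosb (0.429 to 0.533 and 0.339 to 0.433) and of Fosb and Dusp1 (0.270 to 0.354) overlapped at their edges. In the mouse it ran Egr1, Nr4a1, Junb, Arc, Fos, Dusp1, Egr3, Ier2, Npas4, Fosb. There the intervals of 3 pairs of neighbors overlapped, Npas4 with Fosb (0.784 to 0.886 and 0.725 to 0.823), Junb with Arc (5.04 to 5.29 and 4.85 to 5.09) and Dusp1 with Egr3 (2.493 to 2.67 and 2.32 to 2.494).

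Within a species, levels were also compared from region to region. Highest over lowest region was at least 1.5 for 0 of 10 mouse members, beside 31.4% of all genes, and for 1 of 7 opossum members with at least 50 UMIs, Dusp1, beside 23.6%. The Dusp1 value rests on 65, 108 and 42 UMIs, and 1 of 7 does not set the opossum members apart from other genes. This ratio also grows with counting error. The mouse members had 968 to 16319 UMIs each, beside a minimum of 50 for all genes. The opossum region with the highest sum, 25.7, was also the shallowest, with a median of 1048 UMIs per cell against 1358 and 1503. The part of depth in this was not tested.

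The sum of the members was higher in V1 than in the rest of each section taken as 1 group. That rest held other cortex, V1 outside the drawn regions and deeper structures, and V1 was not set against other cortex alone. In the mouse all 10 members were at least 1.5-fold higher in V1 than in the other 111112 cells, beside 2.28% of all genes, from 1.87 for Egr3 to 2.58 for Arc. In the opossum 6 of 7 were, beside 5.45% of all genes. Egr1 led with 18.3 in V1 against 6.65 elsewhere, a ratio of 2.75 (2.69 to 2.80), and Npas4 followed with 2.23. Fos was the exception at 1.04 against 0.787, a ratio of 1.32 (1.22 to 1.43), where the mouse gave 3.60 against 1.48, a ratio of 2.44. Each section was also divided into square tiles, an analysis added after the data were seen, in which a tile counted as V1 when at least 50% of its cells were V1 cells. The 33 opossum V1 tiles had sums of 14.7 to 34.8 with a median of 21.7, and 42 of 644 other tiles exceeded that median. Of the same other tiles, 119 exceeded the lowest V1 tile. The 40 mouse V1 tiles ran from 27.2 to 42.0 with a median of 32.7, exceeded by 35 of 675 other tiles. The lowest mouse V1 tile was exceeded by 75 of them.

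**Figure D2:**
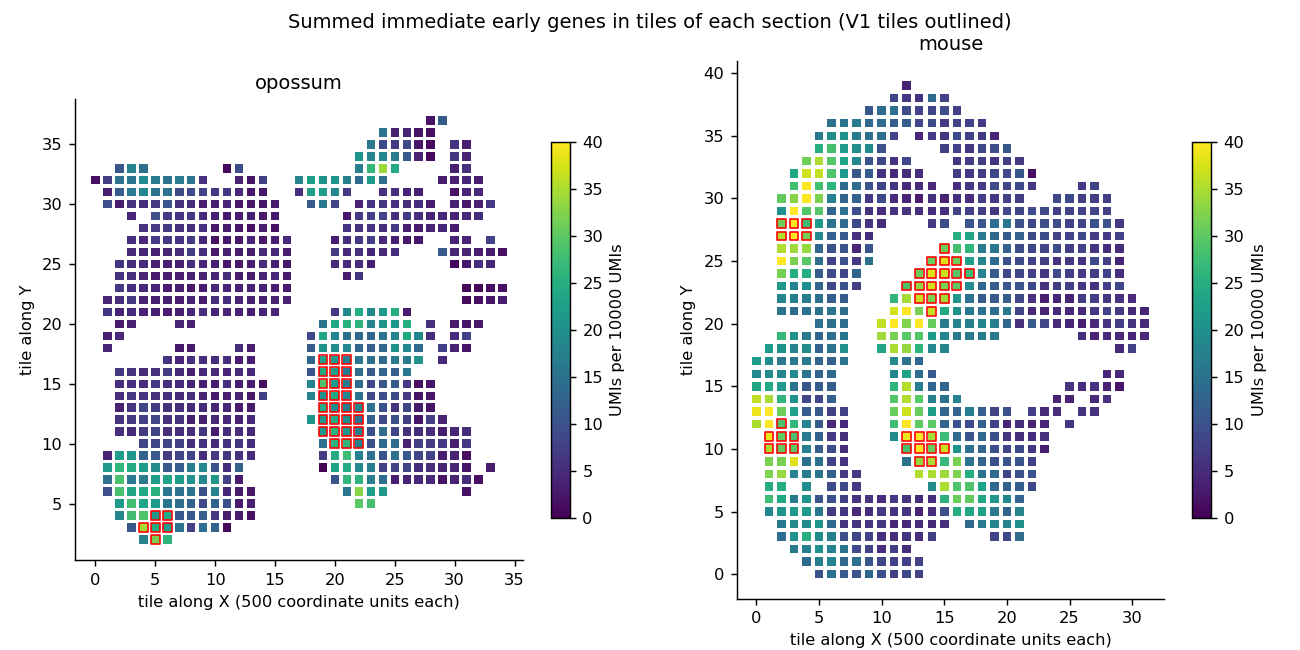
Summed level of the 9 genes named in both species (UMIs per 10000 UMIs, color scale ending at 40) in square tiles of each section, with V1 tiles outlined in red; axes count tiles of 500 coordinate units. High tiles fill the cortical rim around V1 in both sections, the highest mouse tile (46.3) lies outside the outlined V1 tiles, and the deep tissue is dark.

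The tiles outside V1 differ in tissue, so V1 was also set against those with enough Sv2b, a synaptic vesicle gene of glutamatergic neurons. Sv2b was at least as high as in the lowest V1 tile in 462 of 644 other opossum tiles and 502 of 675 in the mouse. That cut does not single out cortex. Against these tiles alone the V1 sum was 2.01 times as high in the opossum (21.8 against 10.9) and 2.06 times as high in the mouse (33.9 against 16.5), while Sv2b itself was at 2.34 against 2.33 and at 4.16 against 4.55. Without Egr1 the same ratios were 1.505 and 2.06. Mbp, the myelin protein of oligodendrocytes, was lower in V1 than in these tiles, at 34.9 against 62.2 and at 11.1 against 13.9, and its part in the contrast was not tested.

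Depth in V1 was measured from the pial side to the white matter and cut into 10 equal steps within each region. In the mouse the sum had 2 crests. The sum of all 10 genes was 37.9, 41.9, 48.9 and 56.2 in steps 1 to 4, fell to 42.0 and 32.0 in steps 5 and 6, and stood at 35.2, 40.2, 45.1 and 37.1 in steps 7 to 10. The crest in step 4 lay close to the median depth of L4 cells, at 0.338 of the full depth, and the trough in step 6 lay near that of L5PT cells, the large output neurons, at 0.546. L4 receives the main thalamic input to V1. In every mouse region step 4 exceeded step 6, by 1.67 to 1.87 times for the sum, a pair of steps picked after the profile was seen. Per gene the ratio ran from 1.46 (1.08 to 1.97) for Fosb to 1.89 (1.46 to 2.45) for Ier2, and 8 of 10 members reached 1.5, beside 14.3% of all genes.

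Arc had the steepest rise over the upper steps, from 3.19 in step 1 to 7.07 in step 4. Junb and Fos were flatter above the crest, at 5.94 and 3.84 in step 1 and 6.32 and 4.84 in step 4. Egr1 went from 10.6 to 17.5, dropped to 9.42 in step 6 and rose again below. In step 9 Egr1 and Junb were back at 14.7 and 5.66, while Fos and Ier2 reached 3.36 and 0.887 in steps 8 and 9. Not every member crested in step 4. Ier2 was highest in step 3, at 1.56 against 1.37 in step 4, and Npas4 in step 2, at 0.997 against 0.896. Fosb and Npas4 were also higher in step 9 (0.934 and 0.960) than in step 4 (0.874 for Fosb).

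The opossum sum was highest in the upper steps. It was 25.6, 25.9, 27.6, 24.9 and 23.8 in steps 1 to 5 and 21.5, 19.3, 17.7, 17.8 and 20.8 in steps 6 to 10. Most of this was Egr1, which went from 23.7 in step 3 to 14.04 in steps 8 and 9. Fos ran against it, with 0.718 and 0.728 in steps 2 and 3 and 1.32, 1.25 and 1.27 in steps 6 to 8. With Egr1 left out the sum went from 4.61 in step 1 to 3.14 in step 10 and lay between 3.68 and 4.26 in the steps between. For step 4 against step 6, 2 of 7 opossum members were at least 1.5-fold higher in the upper step (Fosb, 1.59, and Arc, 1.87, on 23 and 10 UMIs), beside 15.1% of all genes, and 2 at least 1.5-fold lower (Npas4, 0.308, and Dusp1, 0.582), beside 16.7%. Of these, Npas4 alone had an interval that left out 1. The pair of steps was picked on the mouse profile and does not lie at the same cell types in the opossum. There IT_B, which the authors match to mouse L4, and L5PT had median depths of 0.485 and 0.713.

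**Figure D3:**
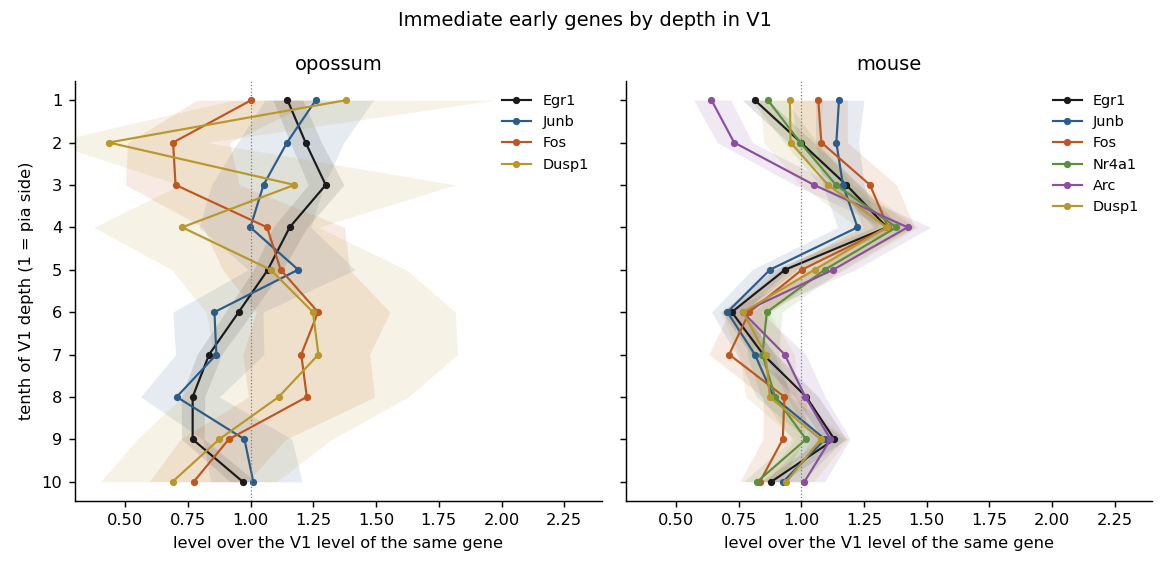
Level of selected members in each step of V1 depth divided by the level of the same gene in all V1 cells, for opossum and mouse (shading is the 95% Poisson interval, step 1 is at the pial side). In the mouse the 6 genes share a crest in step 4 and a dip in step 6 or 7, whereas in the opossum Egr1 declines with depth and Fos is highest in step 6.

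The depth was also cut into 3 equal bands. Upper over lower band was 1.40 (1.35 to 1.45) for the opossum sum, above 1 in 3 of 3 regions, and 1.10 (1.08 to 1.13) for the mouse sum of the same genes, above 1 in 4 of 4. With the outer 2 of 5 bands the mouse value turned to 0.962, and without Egr1 the opossum value was 1.15 (1.05 to 1.27). Egr1 itself was at 1.46 (1.40 to 1.52) in the opossum, and at 1.06 (1.02 to 1.10) in the mouse with 0.904 for the outer 2 of 5 bands. Fos was at 0.862 (0.711 to 1.04) in the opossum, with an interval that includes 1, and at 1.34 (1.25 to 1.44) in the mouse. Ier2 had the largest upper excess in the mouse, 1.53 (1.33 to 1.75), and Arc the only lower excess, 0.865 (0.812 to 0.921) with 0 of 4 regions above 1 (1.05 with 2 bands). At least 1.5-fold in the upper band was reached by 0 of 7 opossum members, beside 10.2% of all genes, and by 1 of 10 mouse members, beside 8.73%. The mean relative depth of the UMIs, weighting each cell by its level, ran from 0.449 (Egr1) to 0.507 (Fos) in the opossum and from 0.437 (Ier2) to 0.503 (Arc) in the mouse.

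By the authors' class labels the members were nearly as high in non-neuronal as in glutamatergic cells. The classes themselves were weakly separated by their markers: Slc17a7, the vesicular glutamate transporter, was at 10.5 in mouse glutamatergic cells and 10.4 in all other V1 cells, while Gad1, which makes GABA, was 2.32 times as high in mouse GABAergic cells as in others and 4.75 times in the opossum. How much RNA of neighboring cells enters a segmented cell was not tested. Glutamatergic over non-neuronal was 1.08 (1.03 to 1.14) for the opossum sum and 1.09 (1.06 to 1.12) for the mouse sum. Without Egr1 the opossum value was 0.9498 (0.849 to 1.07), on the other side of 1. At least 1.5-fold in the glutamatergic class was reached by 0 of 7 opossum members (13.6% of all genes) and 0 of 10 mouse members (6.15%). Npas4, known as a neuron-restricted gene, had the highest of these ratios in the mouse, 1.35 (1.14 to 1.61), above 1 in 4 of 4 regions. Dusp1 in the opossum was the 1 member at least 1.5-fold higher in non-neuronal cells (12.5% of all genes), at 0.455 against 0.299.

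The summed members were lower in GABAergic than in glutamatergic cells. The sum was 16.0 against 22.9 in the opossum, a ratio of 0.697 (0.650 to 0.747), and 28.6 against 35.4 in the mouse, a ratio of 0.809 (0.773 to 0.846). No region of either species had a ratio of 1 or above for the sum, but without Egr1 the opossum value was 0.741 (0.628 to 0.870) with 1 of 3 regions above 1, the highest at 1.32. By gene, the opossum intervals of Egr1 (0.637 to 0.742) and Junb (0.449 to 0.797) left out 1, while those of Fos, Fosb, Arc, Npas4 and Dusp1 included it. In the mouse only the intervals of Ier2 (0.626 to 1.07) and Dusp1 (0.721 to 1.0007) included 1. Against all cells of the same region and step of depth the GABAergic values were 0.735 and 0.866. Glutamatergic cells were at least 1.5-fold higher for 2 of 7 opossum members, Junb (1.60 against 0.965) and Npas4 (0.5003 against 0.328), beside 16.4% of all genes, and for 0 of 10 mouse members, beside 13.7%. Median UMIs per cell were 1596 in GABAergic and 1343.5 in glutamatergic opossum cells, and 1345 and 1325 in those of the mouse.

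Subclasses were read both as they stood and against all cells at the same depth. All cells includes the subclass itself, so the more of a step a subclass fills, the closer its value is held to 1. Values relative to depth are thus not on 1 scale between common and rare subclasses. The class and subclass labels do not match in every cell: of 563 opossum cells labelled Pvalb, Sst or Vip, 300 had the GABAergic class and 244 the glutamatergic class, and of 1257 labelled as a glial, endothelial or microglial subclass, 649 had the non-neuronal class. In the mouse the matches were 319 of 368 and 1414 of 1674. In the mouse, L4 cells had the highest sum of the 9 genes, 39.9 (39.2 to 40.7), then L6CT cells, which project to the thalamus, with 35.7 (34.8 to 36.5) and L2/3 cells with 35.2 (34.3 to 36.0), whose intervals overlap. L6IT stood at 32.4 and L5IT at 30.0. L5PT cells had 24.1 (22.7 to 25.5), below every other glutamatergic subclass apart from the 26 L6b cells at 26.7 (21.7 to 32.5), whose interval overlaps. Relative to all cells at the same depth L4 was at 1.03 (1.01 to 1.05), L6CT at 1.05 (1.03 to 1.08) and L5PT at 0.878 (0.829 to 0.929). Among GABAergic cells Pvalb was at 0.793 (0.735 to 0.853), Sst at 0.853 (0.790 to 0.918) and Vip at 0.739 (0.588 to 0.918). Astrocytes, microglia, endothelial cells and OPC had intervals that include 1, while oligodendrocytes were at 0.894 (0.859 to 0.930).

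Single genes added detail. Fos in L5IT cells was at 0.625 (0.448 to 0.848) of the level expected from depth, at 1.92 against 3.60 in all V1 cells. Arc in Pvalb cells was at 0.616 (0.489 to 0.767), and Junb in Sst cells at 0.671 (0.532 to 0.836). Npas4 was at 1.21 (1.07 to 1.37) in L4 and at 0.655 (0.442 to 0.935) in astrocytes. These pairs of gene and subclass were picked from all such pairs for their distance from 1, so they stand as a description.

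In the opossum, IT_A cells of the upper layers had a sum of 25.2 (24.6 to 25.9), against 19.5 and 19.8 in IT_B and IT_C, 20.7 in L6CT, 16.0 (14.4 to 17.7) in L5PT and 15.2 (12.4 to 18.4) in L5NP. The 32 microglia were at 26.8 (21.7 to 32.7), 65 endothelial cells at 25.9 (22.2 to 30.0), oligodendrocytes at 22.4 and astrocytes at 21.7. Egr1 in oligodendrocytes was at 1.08 (1.02 to 1.14) of the level expected from depth. Of these 565 cells 331 had the glutamatergic class. L5PT was again below its depth, at 0.882 (0.795 to 0.976), as were IT_B at 0.860 (0.779 to 0.948), Pvalb at 0.848 (0.796 to 0.902), Sst at 0.856 (0.779 to 0.939) and Vip at 0.718 (0.570 to 0.894). IT_A was at 1.03 and L6CT at 1.02 of expectation. These opossum values depended on Egr1. Without it L5PT was at 1.05 (0.848 to 1.29), IT_B at 1.001 (0.803 to 1.23), Sst at 0.925 (0.741 to 1.14) and Vip at 0.844 (0.482 to 1.37), and Pvalb alone among them kept an interval below 1, at 0.774 (0.661 to 0.899). In the mouse, with Nr4a1 in the sum, the values without Egr1 were 0.942 (0.888 to 0.9986) for L5PT, 0.799 (0.734 to 0.869) for Sst, 0.679 (0.523 to 0.868) for Vip and 0.809 (0.746 to 0.876) for Pvalb. Fos in opossum astrocytes was at 1.32 (1.06 to 1.62) on 88 UMIs, the highest Fos value relative to depth among subclasses with at least 25 Fos UMIs there, and mouse astrocytes were at 1.01 (0.873 to 1.15).

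**Figure D4:**
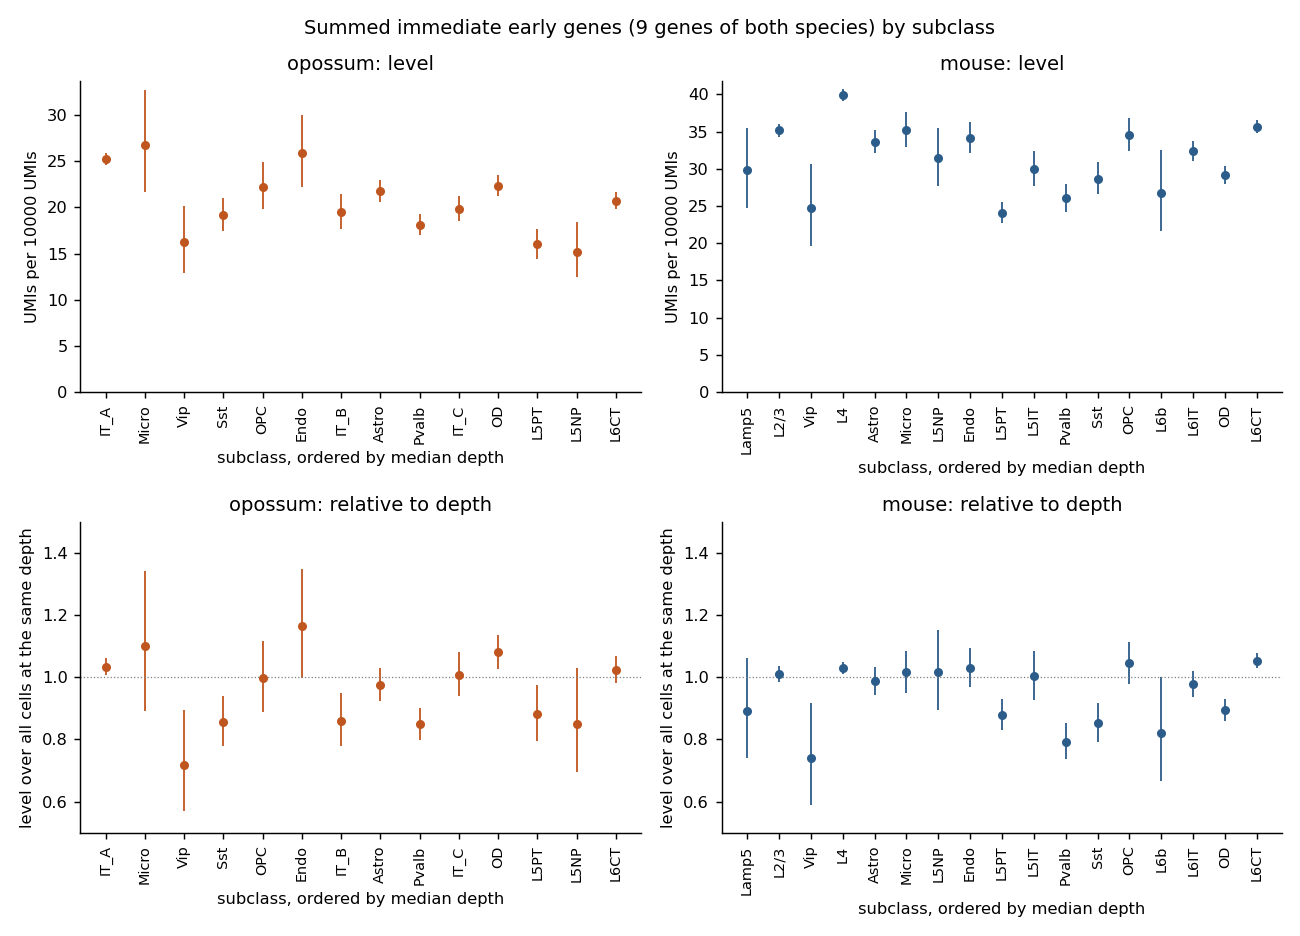
Summed level of the 9 genes by subclass, ordered by median depth: top, UMIs per 10000 UMIs; bottom, the level divided by that of all cells in the same region and step of depth, with a dotted line at 1 (bars are 95% Poisson intervals). L4 leads in the mouse and IT_A among opossum glutamatergic subclasses, and Pvalb, Sst, Vip and L5PT lie below 1 in both species for this sum; without Egr1 the opossum L5PT value is 1.05 and the intervals of Sst and Vip include 1.

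Whether members were seen in the same cells was examined next. Cells were thinned to 300 UMIs each, leaving out 156 opossum and 130 mouse cells that had fewer, and co-detection with Fos was set against the number expected within region and step of depth. Of 858 mouse cells with Fos, 131 also had Junb against 122 expected, a ratio of 1.07 (0.895 to 1.27). In these cells the share with Junb was 15.3%, against 13.6% of cells without Fos. Over the 9 partners the mouse ratios ran from 0.765 (Ier2) to 1.10 (Npas4), each with an interval that includes 1. None of 9 reached 1.5, beside 1.93% of all genes, and the median was 0.940 against 0.994 for all genes. The opossum gave 154 cells with Fos, 13 of which had Junb against 7.10 expected, a ratio of 1.83 (0.974 to 3.13), and 66 had Egr1 against 59.9, a ratio of 1.10 (0.852 to 1.40). Thus 1 of the 2 partners with at least 5 expected cells passed 1.5, beside 5.77% of all genes, on counts whose interval includes 1. With all UMIs kept, so that cells differ in depth, the mouse ratios ran from 1.06 (Ier2) to 1.23 (Npas4), so that Ier2, Fosb, Egr1, Egr3 and Dusp1 moved from below to above 1, and the opossum ratio for Junb was 1.24. Of the other starting genes tried after thinning (Egr1, Npas4, Junb and Arc), Junb with Nr4a1 in the mouse was the one ratio whose interval left out 1, at 1.14 (1.01 to 1.29). This pair was picked from all pairs tried and its interval starts at 1.008, so it stands as a description.

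Likeness in space was measured as Pearson's r of log2(UMIs per 10000 + 0.1) across bins of region and step of depth, which share library and cells, so r is given as a description. In the mouse, over 40 bins and beside 5488 other genes with at least 500 UMIs, Egr1 and Nr4a1 matched the sum of the other members better than any of these genes did, with r of 0.853 and 0.805. Egr3 (0.675), Dusp1 (0.663), Junb (0.636) and Ier2 (0.599) came next, then Fos (0.554) and Arc (0.539), with Npas4 (0.451) and Fosb (0.263) behind. The 5 other genes most like the summed members were Rims1, an active zone protein (0.752), Lrrc4c, the netrin-G1 ligand (0.701), Pde7b, a cAMP phosphodiesterase (0.699), 1700016P03Rik (0.697) and Sertad1, a transcriptional regulator (0.687). 1700016P03Rik is a long non-coding RNA at chr11:75063301-75070543, plus strand, whose gene holds the microRNA genes Mir132 and Mir212, and with Egr1 left out of the sum it ranked 1 with 0.744. Its level in V1 was 4.35.

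In the opossum r of each ranked member with the sum of the others was lower than in the mouse, on fewer UMIs for each. The members ranked there other than Egr1 had 91 (Arc) to 1069 (Junb) UMIs, against 968 to 16319 in the mouse. With 82.4% of the opossum UMIs from Egr1, the sum of the others was mostly Egr1 for each other member. How far low counts pull r toward 0 was not tested. Over 30 bins and 3340 other genes, r with the sum of the others was 0.459 for Junb, 0.276 for Egr1 and 0.263 for Npas4, and Fos stood at -0.26. The genes most like the sum were NRGN, which binds calmodulin in dendrites (0.883), RGS4, a brake on G protein signaling (0.805), CAP1, an actin regulator (0.796), ITPKA, an inositol trisphosphate kinase of dendritic spines (0.777) and GSTM3, a glutathione transferase (0.765). With Egr1 left out of the sum NRGN moved to rank 441 with 0.269.

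Other activity-induced genes, from a list of 52 symbols, in which Cyr61 and Ccn1 stand for the same gene, were measured in the same way. Those with at least 50 UMIs numbered 34 in opossum V1 and 47 in mouse V1. V1 exceeded the rest of the section at least 1.5-fold for 21 of 34 and 19 of 47 of them, beside the 5.45% and 2.28% of all genes given above, with medians of 1.65 and 1.41. In the mouse 18 of 47 were at least 1.5-fold higher in step 4 than in step 6, beside the 14.3% of all genes, with a median of 1.29. In the opossum 4 of 34 were, and 5 of 34 were at least 1.5-fold lower, beside 15.1% and 16.7%, with a median of 0.897. These steps, picked on the mouse profile, lie nearer the pia than the median depths of opossum IT_B (0.485) and L5PT (0.713). The 2 species are thus not compared at the same cell types. Between species 15 of 41 listed genes were at least 1.5-fold higher in the mouse, beside 26.6% of all genes, and 13 of 41 at least 1.5-fold higher in the opossum, beside 39.2%. The median ratio of the 41 was 1.17, against 0.840 for all genes. The minimum here was on the summed UMIs of both species. Gadd45g, Ptgs2, Klf4, Ier5l, Zfp36 and Plk3 met it through the mouse counts alone, with 1 to 38 opossum UMIs. All of these were among the genes higher in the mouse, so part of that count comes from the filter. A minimum in each species was not applied to this list. The 5 with most UMIs in the mouse were Homer1, a postsynaptic scaffold (5.40), Lingo1 (4.49), Nrn1, a secreted plasticity factor (3.43), Bhlhe40, a clock-linked repressor (2.58), and Cyr61, a matrix protein (2.35). In the opossum they were Homer1 (11.9), the secreted granule protein Vgf (4.70), Lingo1 (4.55), Nptx1, a pentraxin of excitatory synapses (4.02), and the kinase Plk2 (3.88). Homer1 over the rest of the section was 2.79 in opossum V1 and 1.91 in the mouse, while Lingo1 was 2.37 and 1.15. Cyr61 in the mouse was 2.86 times as high in V1, and higher in the lower band (upper over lower band 0.451).

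Genes of the signaling route to the members formed a further list. Of its 18 kinases, coactivators and factors, such as Creb1, Srf and Mapk3, V1 was at least 1.5-fold above the rest for 0 of 14 measured in opossum V1 and 0 of 16 in the mouse, with medians of 0.990 and 1.03. With 5.45% and 2.28% of all genes past that mark, counts of 0 in lists this short set the list apart from other genes in neither species. Heat shock genes, which respond to stress of the tissue, were at 0 of 4 and 0 of 6, to which the same applies. Hspa8, the most abundant of them, was at 12.9 in opossum V1 against 12.0 in mouse V1, and V1 over the rest was 1.07 and 1.03. Between species Hsph1 and Dnajb1 were 2.82 and 1.80 times as high in the mouse, and Hspb1 was at 0.498 on 45 mouse and 50 opossum UMIs.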

How the data were processed

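Stereo-seq of 1 opossum sample and 1 mouse sample was used. The authors mapped the mouse reads to GRCm39 and the opossum reads to their own genome, in which 3′ gene ends were lengthened. They summed molecules over segmented cells and deposited raw UMI counts, with position, V1 region, filter status (50 genes and 100 UMIs) and class and subclass labels given in up to 3 rounds. The members and gene lists were chosen with earlier results of these data known.

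Features were matched by symbol, ignoring case. Levels are summed UMIs per 10000 with exact Poisson intervals, and ratios carry intervals from the exact binomial distribution. Depth came from the smallest rectangle around each V1 region, with IT_A or L2/3 on top and L6CT below. Subclasses needed 25 cells. The share of all genes past 1.5-fold was taken over genes with at least 50 UMIs in V1, and between species over genes with 50 UMIs in each species or in both together. Tiles had sides of 500 coordinate units and at least 20 cells. Genes named beside the members were the 5 most abundant activity-induced genes and the 5 genes most alike in space per species, and heat shock genes. Code was tested on simulated counts and run in Python (3.11.15) using pandas 2.3.3, scipy 1.17.1, matplotlib 3.10.9 and numpy 2.4.6. Alternatives were stricter cells (200 genes and 300 UMIs), means over cells, regions left out, other depth cuts, glutamatergic cells only, first-round labels, depth standardization and unthinned counts. Tiles, the pair of depth steps, sums without Egr1 and the UMI minimum in each species were added after the data were seen.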

Additional observations from a re-analysis of the deposited data

Results flagged for a closer look

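For step 4 over step 6 of the 10 depth steps, Npas4 ratios lay on opposite sides of 1 in every region of the 2 sections. The ratio was 0.308 in the opossum, below 1 in 3 of 3 regions and based on 12 and 51 UMIs, and 1.47 in the mouse, above 1 in 4 of 4 regions and based on 124 and 77 UMIs. The difference between the sections was not tested, and the pair of steps was picked after the mouse profile was seen. The same steps do not lie at the same cell types in the 2 species. Opossum IT_B, which the authors match to mouse L4, and L5PT had median depths of 0.485 and 0.713. In steps 5 and 8, which hold these depths, opossum Npas4 was at 0.437 (0.295 to 0.623) and 0.451 (0.312 to 0.630).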

How the results depend on the processing

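Each species is 1 sample, and depth per cell limits single genes: opossum Arc rests on 91 UMIs. Leaving out 1 region at a time gave opossum levels of 21.3 to 23.1 and mouse levels of 34.0 to 34.7 for the sum, a species ratio of 1.49 to 1.61, upper over lower band of 1.37 to 1.43 and 1.08 to 1.11, glutamatergic over non-neuronal of 1.06 to 1.14 and 1.07 to 1.12, and step 4 over step 6 of 1.11 to 1.23 and 1.78 to 1.81 (opossum first). No paired analysis was possible because each species has 1 sample and no replicate.

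Means over cells gave levels of 23.2 and 35.3, a species ratio of 1.52 and an opossum glutamatergic over non-neuronal of 1.15. Without Egr1 the levels were 3.89 and 21.3, the species ratio 5.48, upper over lower 1.15 and 1.13, V1 over the rest in the opossum 1.63, and 2 opossum ratios turned below 1: glutamatergic over non-neuronal, 0.9498, and step 4 over step 6, 0.910. With Nr4a1 the mouse level was 42.0 and the species ratio 1.90. Cutting the depth in 2 bands gave 1.31 and 1.196, and the outer of 5 bands 1.33 and, turned below 1 in the mouse, 0.962. Labels of the first round gave an opossum glutamatergic over non-neuronal of 1.03, IT_A over L5PT of 1.81 and mouse L4 over L5PT of 2.21; allowance for depth brought the last pair to 1.17 and 1.17, and mouse glutamatergic over non-neuronal to 1.04. Against tiles with Sv2b at least at the lowest V1 tile, V1 was 2.01 and 2.06 times as high.

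Relative to depth and without Egr1, opossum L5PT (1.05) and IT_B (1.00) turned from below to above 1. Among single genes 4 ratios turned: opossum Npas4 upper over lower with 2 bands (0.961), mouse Egr1 with 5 bands (0.904), mouse Egr1 glutamatergic over non-neuronal after allowance for depth (0.999), and mouse Arc with 2 bands (1.05). The cause was not tested.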
